A study of Mus musculus with 17 samples.

Results

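Trp63, Sox2, Ngfr, Cd44, Cav1 and Cav2 encode a pair of transcription factors, a pair of cell surface receptors and a pair of membrane coat proteins that mark or control basal progenitor cells of stratified and glandular epithelia. They were chosen by symbol alone, and all 6 were found among the 38293 gene IDs of a table of mouse lacrimal gland and its uncloned organoids and among the 55487 gene IDs of a second table of organoid clones. All 6 passed the filter on low counts in both tables. The lacrimal gland secretes the watery part of tears, and organoids are epithelial cultures grown from it in basement membrane extract.

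RNA with poly(A) tails was sequenced in 17 libraries that form 7 groups, all from mouse. Uncloned organoids carry the label wild type bulk and are numbered as lines 6, 7 and 8. They were grown in differentiation medium (DM, 3 libraries: 2 days in expansion medium and then 5 days in DM) or in expansion medium (EM, 3 libraries: 7 days), and are set against gland tissue with the same numbers (3 libraries). Clones labelled Pax6-KO (2 clones, named 1 and 2) and wild-type (WT) clones (2 clones, also named 1 and 2) were each grown in DM and in EM, giving 2 libraries a group. For the clones the growth protocol gives the times above, but the series text gives 7 days of each medium, so their days in DM are uncertain. A clonal line descends from 1 cell, so each genotype rests on 2 cells. The labels give no strain, sex or age, and do not say that the numbers stand for separate animals, so p-values measure only the spread between these libraries.

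Total counts per library ran from 12801473 to 19207469 in the table with the gland and from 18282059 to 22500534 in the clones. The 10 most abundant genes took 65.5% to 67.6% of all counts in gland libraries and at most 6.72% in uncloned organoids. Levels are given as CPM, the counts of a gene over a library size that was adjusted by trimmed-mean (TMM) scaling. The tables were scaled and fitted apart, and levels are compared only within a table. Pax6, an eye transcription factor and the target of the labelled knockout, stood at 135 and 309 CPM (DM) and 172 and 272 CPM (EM) in clones labelled KO, against 219 and 280 CPM (DM) and 245 and 276 CPM (EM) in WT clones. These ranges overlap, so the gene count cannot check the labels, and the directions below rest on the labels alone. Epcam, a surface protein of epithelial cells, averaged 856 CPM in uncloned DM, 471 CPM in uncloned EM and 144 CPM in the gland, and Dcn, a fibroblast proteoglycan, averaged 0.0959, 0.111 and 245 CPM in these groups.

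Basal cells sit on the basement membrane and replenish the layers above them in stratified epithelia, and glands hold basal and myoepithelial cells beneath their ducts and acini. The transcription factor p63, encoded by Trp63, maintains basal identity and switches on basal keratins and adhesion proteins. SOX2 sustains progenitors in several epithelia and neural tissues. NGFR (p75) binds neurotrophins, CD44 binds hyaluronan, and caveolins coat the small membrane pits called caveolae.

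All 6 genes stood higher in organoids than in the gland, and their order by level differed between them. Per kilobase of exon, uncloned DM organoids held 75.5 ± 30.5 CPM of Cd44, 22.4 ± 4.35 of Cav1, 19.7 ± 4.28 of Cav2, 19.4 ± 1.92 of Ngfr, 8.82 ± 0.686 of Trp63 and 3.46 ± 0.938 of Sox2 (SD, n = 3). In EM the same measure was 36.7 ± 4.27 CPM for Cd44, 17.1 ± 2.02 for Ngfr, 10.7 ± 0.754 for Cav2, 8.97 ± 0.847 for Cav1, 8.83 ± 0.491 for Trp63 and 6.05 ± 1.75 for Sox2. In the gland it was 5.54 ± 0.498 CPM for Cav1, 2.38 ± 0.214 for Cav2, 0.938 ± 0.307 for Trp63, 0.770 ± 0.139 for Cd44, 0.141 ± 0.105 for Ngfr and 0.0295 ± 0.0512 for Sox2. Cd44 thus led in organoids and Cav1 in the gland. Neighbours whose SDs overlap are Cav1, Cav2 and Ngfr in DM, Cav1 and Trp63 in EM, and Trp63 and Cd44 as well as Ngfr and Sox2 in the gland. Lengths are those of all annotated exons of a gene together, so a gene read from a short isoform is understated.

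**Figure D1:**
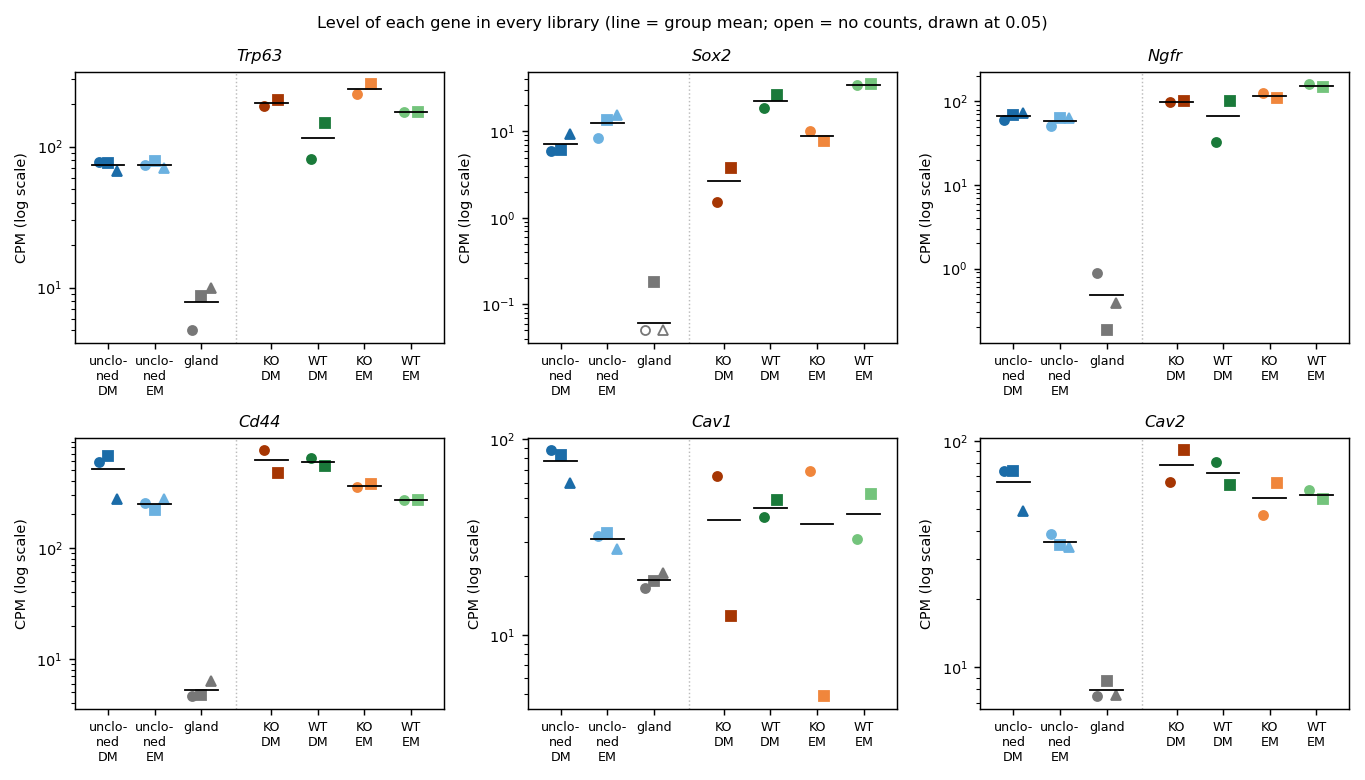
Level of each gene in every library, in CPM on a log axis, with 1 point per library and a line at the group mean. Circles, squares and triangles are lines 6, 7 and 8, and circles and squares are clones 1 and 2. All 6 panels show the gland below every uncloned organoid library, and Cav1 shows clone 2 labelled KO far below the other clones. The dotted line separates the tables, which were scaled apart.

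In uncloned organoids against the gland, 6 of 6 genes were called higher in DM, beside 38.1% of all 13713 genes tested, and 6 of 6 were called higher in EM, beside 37.4%. A gene is called at an edgeR adjusted p under 0.05. Unless stated otherwise, calls by edgeR come from the main fit of all libraries of a table, with the low-count filter and group means. DM and EM are compared with the same gland libraries, so the counts are not independent of each other. Sox2 and Ngfr, with 1 and 9 counts in the gland, passed the filter through organoids, so their direction was fixed by it. The converse holds, here and below, for listed genes nearly absent from organoids. Scaling by total counts instead of the trimmed mean put the median of all genes at 1.99 (DM) and 2.06 (EM) on the log2 scale, and changes below are relative to that shift. With total-count scaling the 6 genes were higher as well. In bulk samples such as these, more cells of a type and more RNA per cell cannot be told apart.

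Trp63 (ENSMUSG00000022510, chromosome 16, 25683763 to 25892102, plus strand, GRCm38) has 8 annotated transcripts, and its count pools the forms with and without the transactivating domain. Uncloned organoids of lines 6, 7 and 8 had 77.6, 77.1 and 67.4 CPM in DM and 73.4, 78.5 and 70.3 CPM in EM, against 4.97, 8.75 and 9.90 CPM in the gland. Organoids in both media shared one narrow range, several times above the gland. The log2 fold change over the gland was 3.21 ± 0.17 in DM (SE, edgeR adjusted p = 1.95e-08) and 3.21 ± 0.17 in EM (adjusted p = 2.07e-08).

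Medium made no difference to Trp63 that could be called in uncloned organoids, where DM minus EM was 0.00 on the log2 scale with a 95% interval of -0.30 to 0.30 (edgeR adjusted p = 1). Clones labelled KO had 196 and 215 CPM in DM and 235 and 277 CPM in EM, while WT clones had 81.6 and 148 CPM in DM and 176 and 177 CPM in EM. Clone 1 of WT in DM was the low library. Clones labelled KO were higher than both WT clones in each medium, but neither difference was called: 0.84 ± 0.25 in DM (edgeR adjusted p = 0.103) and 0.54 ± 0.25 in EM (adjusted p = 0.223). The DM difference was called without WT clone 2 in DM, at 1.33 (edgeR adjusted p = 0.0154), when only clone 1 stood for WT. DM minus EM was -0.62 ± 0.25 in WT clones (edgeR adjusted p = 0.146), and with the clone as a block it was called lower, at -0.68 (adjusted p = 0.0389).

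Trp63 itself was not called between media, and a list of p63 targets and partners was read beside it, which mixes genes that p63 switches on with genes it is known to repress, such as Igfbp3, Sfn and Cdkn1a. Of 28 listed genes, 26 were tested in uncloned organoids, where 12 were higher and 3 lower in DM than in EM, with a median log2 fold change of 0.41 against 0.00 over all genes. Leaving out one library at a time gave 11 to 14 higher and 2 to 5 lower. Igfbp3, which binds insulin-like growth factors, averaged 763 CPM in DM and 195 CPM in EM (1.97 ± 0.13, edgeR adjusted p = 5.55e-06). Krt14, a basal keratin, averaged 2033 CPM in DM and 655 CPM in EM (1.64 ± 0.15, edgeR adjusted p = 2.59e-05). Sfn, the epithelial 14-3-3 sigma protein, rose by 2.19 ± 0.18. In clones labelled KO 8 of 25 were higher and 1 lower in DM (2 to 6 and 0 to 1 with a library left out), and Jag1, a Notch ligand, had the smallest p at 1.49 ± 0.11. In WT clones 11 of 25 were higher and 3 lower (6 to 8 and 1 to 5), and Jag1 at 1.72 ± 0.11 again had the smallest p, while Igfbp3 rose more, by 2.01 ± 0.16. Labelled KO against WT moved 2 of 25 up and none down in DM, beside 2.39% and 3.08% of all genes. Trp73 was among the 2. Trp73 encodes the p63 relative p73 and averaged 11.01 CPM in labelled KO and 2.38 CPM in WT (2.22 ± 0.32, edgeR adjusted p = 0.0223). In EM 2 of 25 were higher and 2 lower, beside 5.38% and 4.41% of all genes. With a library left out, KO against WT gave 0 to 1 higher and 0 to 1 lower in DM, and 0 to 2 higher and none lower in EM. Shares of all genes stand beside the list counts here and below, and no list was tested against them. Leaving out a clone library also lowered the calls over all genes, so lower list counts in clones are not particular to a list. For labelled KO against WT they are those just given. With DM 17.2% were higher and 13.2% lower in uncloned organoids, 4.94% and 3.41% in labelled KO, and 9.61% and 6.13% in WT clones. For EM against the gland 37.4% were higher and 37.4% lower.

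Against the gland, 22 of 26 p63 genes were higher and 2 lower in EM, with a median of 2.54. Krt5, a basal keratin, averaged 1863 CPM in EM and 29.3 CPM in the gland (5.98 ± 0.17, edgeR adjusted p = 1.75e-10), and with total-count scaling 25 were higher and 1 lower. Krt5 rose more than Trp63, and the log2 ratio of Trp63 to Krt5 counts was -5.16 ± 0.08 in DM and -4.65 ± 0.02 in EM, against -1.94 ± 0.22 in the gland (SD, n = 3 each). None of the 6 genes had a higher ratio to Krt5 in each EM library than in each gland library, beside 2.14% of the 13712 other genes tested. Trp63, Cav1 and Cav2 had a lower ratio in each, beside 93.4% of all. For Cav1 the ratio averaged -5.92 in EM and -0.60 in the gland, and for Cav2 -5.70 in EM and -1.87 in the gland. Cd44 kept close to Krt5, with a mean ratio of -2.91 in EM and -2.48 in the gland and overlapping libraries. Relative to Krt14, 3 of the 6 genes were higher in each EM library (Ngfr, Cd44 and Sox2), the last against the 1 gland library that holds a Sox2 count. Over all genes, 3.10% were higher in this way and 90.9% lower.

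**Figure D2:**
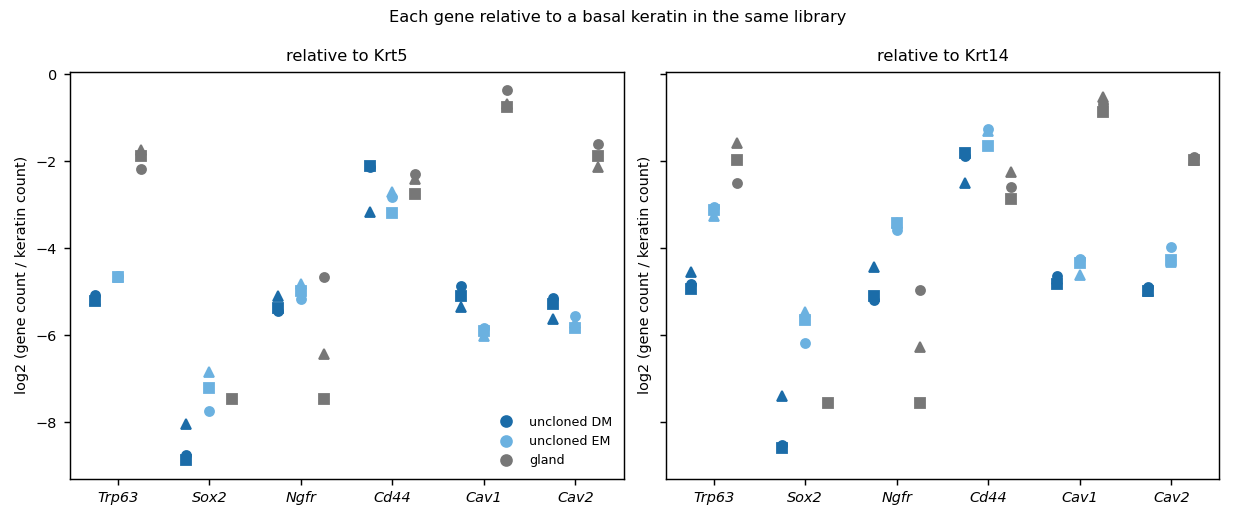
Log2 ratio of each gene's count to the Krt5 count (left) and the Krt14 count (right) of the same library, for uncloned DM, uncloned EM and the gland, with 1 point per library. Trp63, Cav1 and Cav2 lie lower in organoids than in the gland in both panels, while Cd44 overlaps the gland relative to Krt5. Gland libraries with no Sox2 count have no point.

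Sox2 (ENSMUSG00000074637, chromosome 3, 34650405 to 34652461, plus strand) lies within an intron of the noncoding gene Sox2ot on the same strand and shares no exon base with it. Lines 6, 7 and 8 had 5.95, 6.07 and 9.35 CPM in DM and 8.43, 13.5 and 15.4 CPM in EM, against 0, 0.182 and 0 CPM in the gland. A single count in 1 gland library is all the gland held. Its pooled level was 136 times the gland's in DM (95% counting interval 24.44 to 5379) and 236 times in EM (42.35 to 9319), and these intervals cover counting error only.

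With DM, Sox2 changed by -0.50, -1.15 and -0.72 on the log2 scale in lines 6, 7 and 8. The groups overlap because DM of line 8 lies above EM of line 6. The difference was -0.80 ± 0.26 (edgeR adjusted p = 0.0380), and it was not called when DM of line 6, DM of line 7, EM of line 7 or EM of line 8 was left out (adjusted p = 0.140, 0.115, 0.118 and 0.160).

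Sox2 was the 1 member called in the main edgeR fit between labelled KO and WT clones, and it was called lower in both media. Clones labelled KO had 1.54 and 3.77 CPM in DM, against 18.7 and 26.8 CPM in WT clones. In EM they had 10.3 and 7.67 CPM, against 34.6 and 35.2 CPM in WT clones. Both clones labelled KO lay below both WT clones in each medium. The log2 fold change was -3.10 ± 0.41 in DM (edgeR adjusted p = 0.0180), where 1 of 6 genes was lower beside 3.08% of the 14282 genes tested. In EM it was -1.96 ± 0.37 (edgeR adjusted p = 0.0243), where 1 of 6 was lower beside 4.41% of all. In the main edgeR fit no member was called higher in labelled KO, beside 2.39% of all genes in DM and 5.38% in EM. Some alternative fits called members higher, as given in the closing section. The EM call was lost when any 1 of its 4 libraries was left out (adjusted p from 0.0832 to 0.155), and the DM call when labelled KO clone 1 in DM was left out (-2.59, adjusted p = 0.0930) or when DM libraries were fitted alone (adjusted p = 0.0619). With either clone labelled KO left out altogether the difference stayed between -3.86 and -2.59 in DM and between -2.18 and -1.77 in EM, and was not called. Few genes of any kind were called once a single clone stood for labelled KO, so the lost call says little about Sox2.

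Between media, Sox2 differed by -1.76 ± 0.40 on the log2 scale in clones labelled KO (edgeR adjusted p = 0.0429), where 1 of 6 genes was lower beside 3.41% of all. Clone 1 moved by -2.74 and clone 2 by -1.02. The call was lost without labelled KO clone 1 in DM (-1.25, adjusted p = 0.130), labelled KO clone 1 in EM (-1.53, adjusted p = 0.178) or labelled KO clone 2 in EM (-1.95, adjusted p = 0.140), and without either clone altogether. In WT clones the difference was -0.62 ± 0.36 and was not called (edgeR adjusted p = 0.292). The test of the difference between these medium effects gave -1.13 ± 0.53 and was not called (edgeR adjusted p = 0.665), so labelled KO and WT are not shown to respond differently. None of the 14282 genes (0%) was called by edgeR in that test, in which 1126 had an unadjusted p under 0.05 and DESeq2 called 28 higher and 150 lower.

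The 250 bases before the RefSeq start of Sox2, the member lower in labelled KO, are shown for reference with those of Cav1 and Cav2 further on (GRCm38.p6). The set of RefSeq promoters used here held 5 of the 6 genes, all but Trp63. RefSeq places the Sox2 start upstream of the GENCODE start given above. Capitals mark matches on either strand to the GC box GGGCGG, the CCAAT box CCAAT, the AP-1 site TGANTCA, the TATA box TATAAA and the TEAD site GGAATG. Over 32851 RefSeq promoters of the same length, 32.7% held the GC box, 33.8% the CCAAT box, 6.75% the AP-1 site, 12.4% the TATA box and 12.6% the TEAD site. The Sox2 window is chr3:34649745-34649994, plus strand, and holds 2 GC boxes and 1 CCAAT box.
Sox2: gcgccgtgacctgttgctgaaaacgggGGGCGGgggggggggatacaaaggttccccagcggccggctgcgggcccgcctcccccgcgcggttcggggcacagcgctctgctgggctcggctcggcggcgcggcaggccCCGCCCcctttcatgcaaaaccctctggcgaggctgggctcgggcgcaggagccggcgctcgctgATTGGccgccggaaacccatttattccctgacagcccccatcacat
These matches describe the letters of the window only.

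Of 18 other SOX factors, 8 were tested in uncloned organoids. Sox9, a factor of gland buds and ducts, averaged 90.9 CPM in DM and 64.9 CPM in EM (0.49 ± 0.10, edgeR adjusted p = 0.00423), and Sox7 was also higher (1.29 ± 0.31, adjusted p = 0.00901). None was lower, and leaving out one library gave 2 to 4 higher. Against the gland, 4 were higher and 4 lower in EM. Sox4, a progenitor factor, averaged 126 CPM in EM and 4.38 CPM in the gland (4.84 ± 0.18, edgeR adjusted p = 1.10e-09). Sox10, a factor of myoepithelial and acinar cells and of glia, was counted 445 times in the gland and never in uncloned DM or EM. With total-count scaling 7 were higher and 1 was lower. In the clones Sox7 went the other way from Sox2: labelled KO averaged 49.6 CPM and WT 4.90 CPM in EM (3.34 ± 0.42, edgeR adjusted p = 0.00827). Sox9 was higher as well (0.68 ± 0.12, edgeR adjusted p = 0.0189), so 2 of 9 SOX factors were higher and none lower in EM (0 to 2 with a library left out), while none of 9 was called in DM by edgeR. With DM, 1 of 9 was higher in labelled KO, Sox9 at 0.70 ± 0.12, and 2 of 9 were higher and 1 lower in WT clones, the higher ones being Sox7 at 2.80 ± 0.42 and Sox9 at 1.34 ± 0.12. With a library left out these gave none in labelled KO, and 2 higher and 0 to 1 lower in WT.

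Ngfr (ENSMUSG00000000120, chromosome 11, 95568818 to 95587735, minus strand) encodes p75, a receptor for all neurotrophins that also marks basal cells of airway and other epithelia. Lines 6, 7 and 8 had 59.5, 68.9 and 72.2 CPM in DM and 50.9, 63.1 and 62.9 CPM in EM, against 0.888, 0.182 and 0.386 CPM in the gland, where 9 counts were seen in all. Every organoid library was far above every gland library. The log2 fold change over the gland was 7.11 ± 0.25 in DM (edgeR adjusted p = 7.15e-10) and 6.93 ± 0.26 in EM (adjusted p = 1.03e-09).

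With DM, Ngfr differed by 0.22, 0.13 and 0.20 on the log2 scale in lines 6, 7 and 8, which was not called (0.18, 95% interval -0.10 to 0.46, edgeR adjusted p = 0.308). Every clone moved the other way. Clones labelled KO had 98.5 and 99.98 CPM in DM and 125 and 109 CPM in EM, and WT clones had 33.2 and 102 CPM in DM and 161 and 148 CPM in EM. WT clone 1 in DM stood lowest of the 8 clone libraries, and WT clone 2 in DM lay close to the clones labelled KO. In clones labelled KO DM minus EM was -0.24 ± 0.43 (edgeR adjusted p = 0.791). In WT clones it was -1.20 ± 0.43 (edgeR adjusted p = 0.109), called lower with the clone as a block (-1.40, adjusted p = 0.0291), without WT clone 1 in DM (-0.61, adjusted p = 0.0384) and without WT clone 2 in DM (-2.22, adjusted p = 9.95e-04). Labelled KO minus WT was 0.56 ± 0.43 in DM (edgeR adjusted p = 0.474) and -0.40 ± 0.43 in EM (adjusted p = 0.601). The medium effect differed between labelled KO and WT by 0.96 ± 0.61, which was not called (edgeR adjusted p = 0.787), while without WT clone 2 in DM it was 1.97 (adjusted p = 0.0451).

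Ligands and partners of Ngfr were listed as 18 neurotrophin pathway genes. In uncloned organoids 5 of 14 tested were higher and 4 lower in DM (4 to 7 and 3 to 4 with a library left out). Sorcs2, a sortilin family receptor that pairs with p75 for proneurotrophins, averaged 48.8 CPM in DM and 1.06 CPM in EM (5.50 ± 0.27, edgeR adjusted p = 1.08e-06). Sort1, the sortilin partner of p75, fell to 47.8 CPM in DM, against 100.2 CPM in EM (-1.07 ± 0.20, edgeR adjusted p = 0.00216). Ntrk3, the receptor of NT-3, averaged 18.5 CPM in DM, 29.3 CPM in EM and 9.86 CPM in the gland. Against the gland 7 of 14 were higher and 2 lower in EM. Sort1 was one of them, at -2.09 ± 0.20, and with total-count scaling its value was -0.03. In the clones Ntf3, which encodes NT-3, was lower in labelled KO than in WT in both media: 0.445 and 3.92 CPM in DM (-3.12 ± 0.45, edgeR adjusted p = 0.0223) and 0.485 and 6.13 CPM in EM (-3.64 ± 0.45, adjusted p = 0.00800), as means of labelled KO and of WT. Of 13 tested, labelled KO against WT gave none higher and 1 lower in DM (0 to 2 and 0 to 1 with a library left out) and 2 higher and 1 lower in EM (none and 0 to 1). With DM 3 of 13 were higher in labelled KO (none with a library left out) and 4 in WT clones (2 to 4), and Sorcs2 was among them in both, at 2.71 ± 0.44 in labelled KO and 3.12 ± 0.46 in WT.

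Cd44 (ENSMUSG00000005087, chromosome 2, 102811141 to 102901665, minus strand, 9 transcripts) encodes a hyaluronan receptor whose standard and variant forms are pooled in the count. Lines 6, 7 and 8 had 595, 663 and 276 CPM in DM and 255, 217 and 274 CPM in EM, against 4.62, 4.74 and 6.30 CPM in the gland. In DM, lines 6 and 7 were well above EM, and line 8 was barely above the highest EM library. The log2 fold change over the gland was 6.59 ± 0.36 in DM (edgeR adjusted p = 2.03e-08) and 5.55 ± 0.35 in EM (adjusted p = 7.47e-08).

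Between media, 3 of 6 genes were higher in DM in uncloned organoids, Cd44, Cav1 and Cav2, beside 17.2% of all genes tested, and 1 of 6, Sox2, was lower beside 13.2%. With total-count scaling 1952 genes were higher and 2597 lower, against 2352 and 1806 with the trimmed mean, and the 4 members kept their calls. Cd44 changed by 1.04 ± 0.25 (edgeR adjusted p = 0.0100). It was higher by 1.22, 1.61 and 0.01 in lines 6, 7 and 8, and without line 8 in DM the difference was 1.34 (adjusted p = 1.75e-06). Clones labelled KO had 756 and 469 CPM in DM and 350 and 371 CPM in EM, and WT clones had 643 and 550 CPM in DM and 269 and 271 CPM in EM. DM was above EM in all 4 clones. In clones labelled KO the change was 0.76 ± 0.22 and not called (edgeR adjusted p = 0.0773), and with the clone as a block it was 0.72 and called (adjusted p = 0.0436). None of 6 was called higher there without the block, beside 4.94% of all. In WT clones Cd44 was the 1 of 6 genes called higher, at 1.14 ± 0.22 (edgeR adjusted p = 0.0164), beside 9.61% of all, and none was called lower, beside 6.13%. That call was lost without WT clone 1 in DM (1.03, adjusted p = 0.0585), WT clone 1 in EM (1.14, adjusted p = 0.0884) or WT clone 2 in EM (1.15, adjusted p = 0.0752). Labelled KO and WT differed by 0.04 in DM, with a 95% interval of -0.47 to 0.55 (edgeR adjusted p = 0.935), and by 0.42 in EM, with an interval of -0.09 to 0.93 (adjusted p = 0.263).

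**Figure D3:**
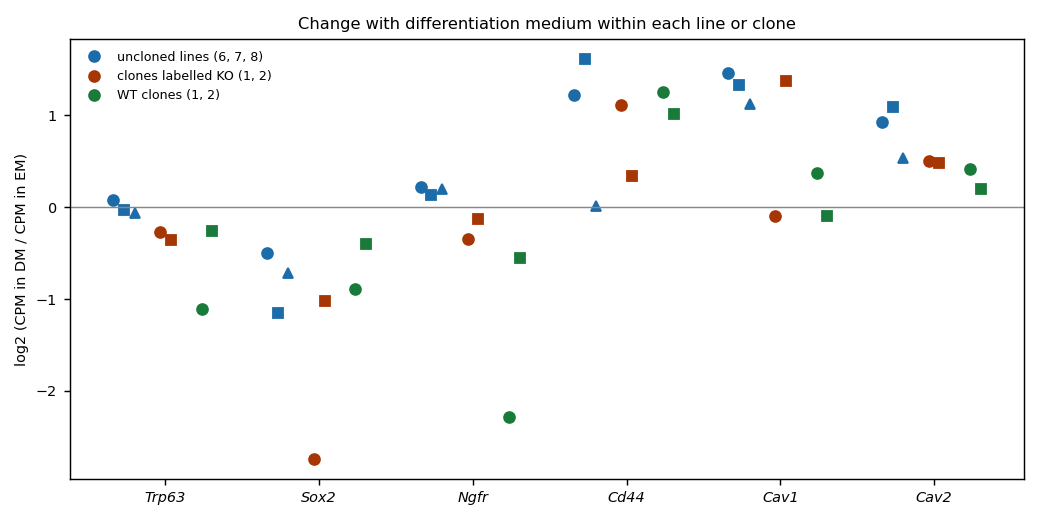
Log2 ratio of CPM in DM to CPM in EM within each uncloned line, each clone labelled KO and each WT clone, with 1 point per line or clone (circle, square and triangle for lines 6, 7 and 8, circle and square for clones 1 and 2). Sox2 lies below 0 in all 7 and Cav2 above 0 in all 7. Ngfr lies above 0 in the 3 lines and below 0 in the 4 clones.

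Hyaluronan enzymes, other hyaluronan receptors and scavenger receptors, CD44 ligands, cytoskeletal linkers and splicing factors made up a list of 20 genes. Of these, 15 were tested in uncloned organoids. Among the 15, 7 were higher and 1 lower in DM (6 to 7 and 1 to 2 with a library left out). Has2, a hyaluronan synthase, averaged 88.4 CPM in DM and 12.0 CPM in EM (2.89 ± 0.29, edgeR adjusted p = 4.44e-05). Stab1, a scavenger receptor, averaged 8.52 CPM in DM and 0.265 CPM in EM (4.97 ± 0.49, edgeR adjusted p = 4.46e-05). Msn, a linker of CD44 to actin, averaged 418 CPM in DM and 104 CPM in EM (2.00 ± 0.22), and Hyal1, a hyaluronidase, was the 1 that fell (-1.04 ± 0.15). These 3 genes were higher with DM in the clones too: Has2 by 2.40 ± 0.38, Stab1 by 3.15 ± 0.33 and Msn by 1.56 ± 0.19 in labelled KO. In WT they were higher by 2.50 ± 0.38, 5.16 ± 0.39 and 2.15 ± 0.19. In labelled KO 4 of 16 were higher and 1 lower (1 to 3 and none with a library left out), and in WT clones 4 were higher and 2 lower (2 to 4 and 0 to 1). Cemip, a hyaluronan-degrading protein, averaged 4.88 CPM in labelled KO and 0.554 CPM in WT in DM, and 2.91 and 0.138 CPM in EM. Stab1 averaged 6.90 CPM in labelled KO and 0.830 CPM in WT in EM. Such low levels limit the precision of their fold changes. Labelled KO against WT had 1 of 16 higher in DM, Cemip (3.12 ± 0.48), and 2 of 16 in EM, Cemip (4.34 ± 0.55) and Stab1 (3.05 ± 0.39), with none lower by edgeR in either medium. With a library left out these gave none in DM and 1 to 3 in EM. Against the gland, 6 of 15 were higher and 7 lower in EM, and 12 higher and 1 lower with total-count scaling. Esrp2, an epithelial splicing factor that acts on Cd44, was lower by that comparison at -1.66 ± 0.08 and higher at 0.40 with total-count scaling.

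Cav1 (ENSMUSG00000007655, chromosome 6, 17306335 to 17341452, plus strand, 10 transcripts) encodes the main coat protein of caveolae. Its neighbour Cav2 (ENSMUSG00000000058, chromosome 6, 17281185 to 17289115, plus strand) encodes a caveolin that depends on caveolin-1 to reach the membrane, and 17219 bases lie between them. An antisense gene spans both but shares no exon base with either. Lines 6, 7 and 8 had 88.0, 83.1 and 59.9 CPM of Cav1 in DM and 32.1, 33.1 and 27.6 CPM in EM, against 17.4, 19.0 and 20.8 CPM in the gland. For Cav2 they had 73.9, 74.1 and 49.2 CPM in DM and 38.7, 34.8 and 34.0 CPM in EM, against 7.46, 8.75 and 7.59 CPM in the gland. DM, EM and the gland did not overlap for either gene, with DM highest and the gland lowest, and line 8 was the lowest of the DM libraries. Cav1 was higher than in the gland by 2.01 ± 0.16 in DM (edgeR adjusted p = 3.67e-07) and by 0.69 ± 0.16 in EM (adjusted p = 0.00180). For Cav2 the differences were 3.05 ± 0.18 in DM (edgeR adjusted p = 3.85e-08) and 2.18 ± 0.18 in EM (adjusted p = 7.02e-07). DM minus EM was 1.32 ± 0.14 for Cav1 (edgeR adjusted p = 7.14e-05) and 0.87 ± 0.14 for Cav2 (adjusted p = 0.00105), higher in 3 of 3 lines for each.

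Both genes of this pair were higher with DM in uncloned organoids, which did not hold for Cav1 in every clone. The windows before their RefSeq starts are chr6:17306085-17306334 and chr6:17280935-17281184, plus strand, with capitals as for Sox2. The set of RefSeq promoters used here holds 2 starts for Cav1, and the window of the upstream one is shown. That window holds 1 GC box and 1 TATA box motif, which lies 221 bases before the start. The Cav2 window holds 1 GC box, 1 CCAAT box and 1 AP-1 motif.
Cav1: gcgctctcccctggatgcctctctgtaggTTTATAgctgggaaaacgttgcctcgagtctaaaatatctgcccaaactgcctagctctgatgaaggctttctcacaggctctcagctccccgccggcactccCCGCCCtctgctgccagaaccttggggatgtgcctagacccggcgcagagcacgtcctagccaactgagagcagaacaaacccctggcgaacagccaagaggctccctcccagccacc
Cav2: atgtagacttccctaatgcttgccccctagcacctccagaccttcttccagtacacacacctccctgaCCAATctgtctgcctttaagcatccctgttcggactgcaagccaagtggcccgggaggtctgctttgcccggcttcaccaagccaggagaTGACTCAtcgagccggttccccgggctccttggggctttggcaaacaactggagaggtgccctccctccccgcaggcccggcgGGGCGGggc
The pair shares the GC box alone among the motifs searched.

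Cav1 and Cav2 were not held in one proportion. The log2 ratio of Cav1 to Cav2 counts was 0.23 ± 0.06 in DM, -0.22 ± 0.12 in EM and 1.27 ± 0.17 in the gland (SD, n = 3 each). DM exceeded EM by 0.45, and DM and EM fell below the gland by 1.03 and 1.48. An exact two-sided permutation test gave p = 0.1 for each of these 3 comparisons, the smallest that 3 libraries against 3 allow.

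**Figure D4:**
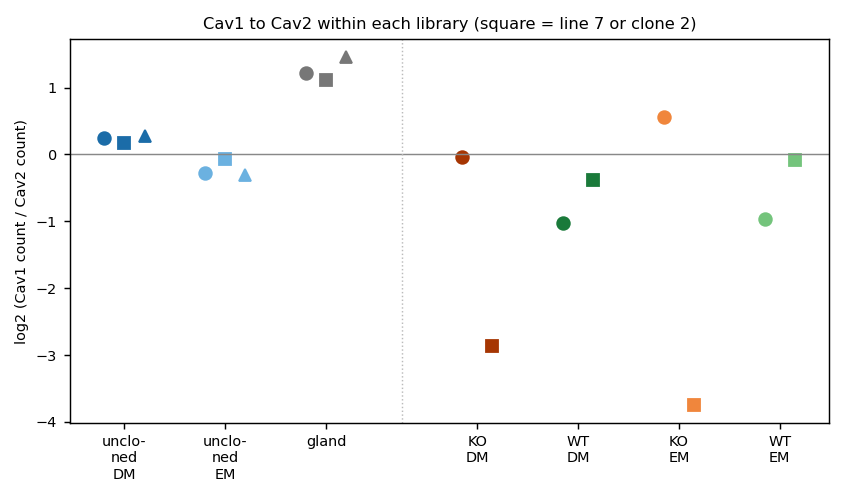
Log2 ratio of Cav1 to Cav2 counts in each library, by group, with 1 point per library. Uncloned DM lies between 0.17 and 0.28, uncloned EM between -0.30 and -0.07 and the gland between 1.12 and 1.46, and clone 2 labelled KO lies at -2.86 in DM and -3.75 in EM.

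In the clones, Cav1 differed most between the clones labelled KO. Clones labelled KO had 64.6 and 12.5 CPM in DM and 69.0 and 4.85 CPM in EM (clone 1 and clone 2), and WT clones had 39.9 and 48.9 CPM in DM and 30.8 and 52.3 CPM in EM. Clone 2 labelled KO was the lowest clone and clone 1 the highest, so labelled KO brackets WT in both media. Labelled KO minus WT was -0.20 in DM (95% interval -2.79 to 2.38, edgeR adjusted p = 0.933) and -0.17 in EM (-2.75 to 2.42, adjusted p = 0.941), intervals that span large changes in either direction. Without clone 1 labelled KO the difference was -1.82 in DM and -3.09 in EM, and without clone 2 it was 0.55 and 0.73, with no call in either case (adjusted p from 0.0762 to 0.5001). Cav2 showed no such split, with 66.3 and 91.1 CPM in DM and 46.97 and 65.4 CPM in EM in clones labelled KO, and 80.8 and 63.7 CPM in DM and 60.5 and 55.3 CPM in EM in WT clones. Clone 2, low in Cav1, was thus the higher of the clones labelled KO in Cav2. Cav2 differed between labelled KO and WT by 0.12 in DM (-0.39 to 0.63) and by -0.04 in EM (-0.56 to 0.47). With DM it was higher in all 4 clones, by 0.49 ± 0.22 in labelled KO (edgeR adjusted p = 0.227, and 0.0202 with the clone as a block) and 0.32 ± 0.22 in WT (adjusted p = 0.369). DM minus EM for Cav1 was 0.06 ± 1.10 in labelled KO and 0.10 ± 1.09 in WT, from a fit without the clone as a block. Its SE therefore includes the spread between clones. Within clones 1 and 2 the change was -0.10 and 1.37 in labelled KO and 0.37 and -0.10 in WT.

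Of 10 other caveola proteins, 8 were tested in uncloned organoids, and 4 were higher and none lower in DM, with a median log2 fold change of 0.42 against 0.00 over all genes (4 to 5 higher with a library left out). Cavin3, a caveola coat protein, averaged 30.5 CPM in DM and 4.93 CPM in EM (2.63 ± 0.26, edgeR adjusted p = 4.86e-05). Ehd2, an ATPase at the caveola neck, was higher by 0.91 ± 0.09, Cavin1, the main cavin, by 0.77 ± 0.11, and Pacsin3 by 0.55 ± 0.14. Cavin3 was also higher in WT clones with DM (3.12 ± 0.85, edgeR adjusted p = 0.04997), where 2 of 7 were higher (0 to 2 with a library left out, and 5 with the clone as a block). In labelled KO none of 7 was called by edgeR, and 5 were higher with the block. Over all genes that block gave 1321 higher in labelled KO and 2122 in WT clones, in place of 706 and 1372. Labelled KO against WT gave none of 7 in DM by edgeR and 1 lower in EM, Pacsin2, at -0.51 ± 0.10, which was lost with any library left out. Against the gland 4 of 8 were higher and 3 lower in EM, and 7 higher and 1 lower with total-count scaling. The endothelial cavin Cavin2 averaged 0.147 CPM in EM and 3.86 CPM in the gland (-4.67 ± 0.42, edgeR adjusted p = 1.39e-06), and -2.64 with total-count scaling.

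Of 22 other surface proteins used to sort epithelial progenitors, all tested, 8 were higher and 4 lower in uncloned DM than in EM (8 to 10 and 3 to 7 with a library left out). Lgr6, an R-spondin receptor of epidermal stem cells, averaged 14.7 CPM in DM and 0.528 CPM in EM (4.78 ± 0.49, edgeR adjusted p = 5.33e-05), and Prom1, or CD133, averaged 473 CPM in DM and 1110 CPM in EM (-1.23 ± 0.16, adjusted p = 2.71e-04). With DM, Lgr6 was also higher by 5.85 ± 0.34 in labelled KO and by 8.53 ± 0.43 in WT clones, and Prom1 changed by -1.99 ± 0.28 and -1.75 ± 0.28. Lgr6 averaged 76.0 CPM in DM and 1.31 CPM in EM in labelled KO, and 61.5 and 0.162 CPM in WT clones. Its low EM levels limit the precision of these fold changes. The counts were 3 higher and 2 lower in labelled KO (1 and none with a library left out) and 4 higher and 2 lower in WT (2 to 3 and 1 to 4). Labelled KO against WT had 2 higher and 2 lower in DM and 2 higher and 1 lower in EM, with 0 to 1 in each direction in DM and none higher and 0 to 1 lower in EM when a library was left out. Alcam, an adhesion protein of the immunoglobulin family, was lower in labelled KO in both, at -0.92 ± 0.13 in DM and -0.64 ± 0.13 in EM. Against the gland 17 of 22 were higher and 1 lower in EM. With total-count scaling all 22 were higher.

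**Figure D5:**
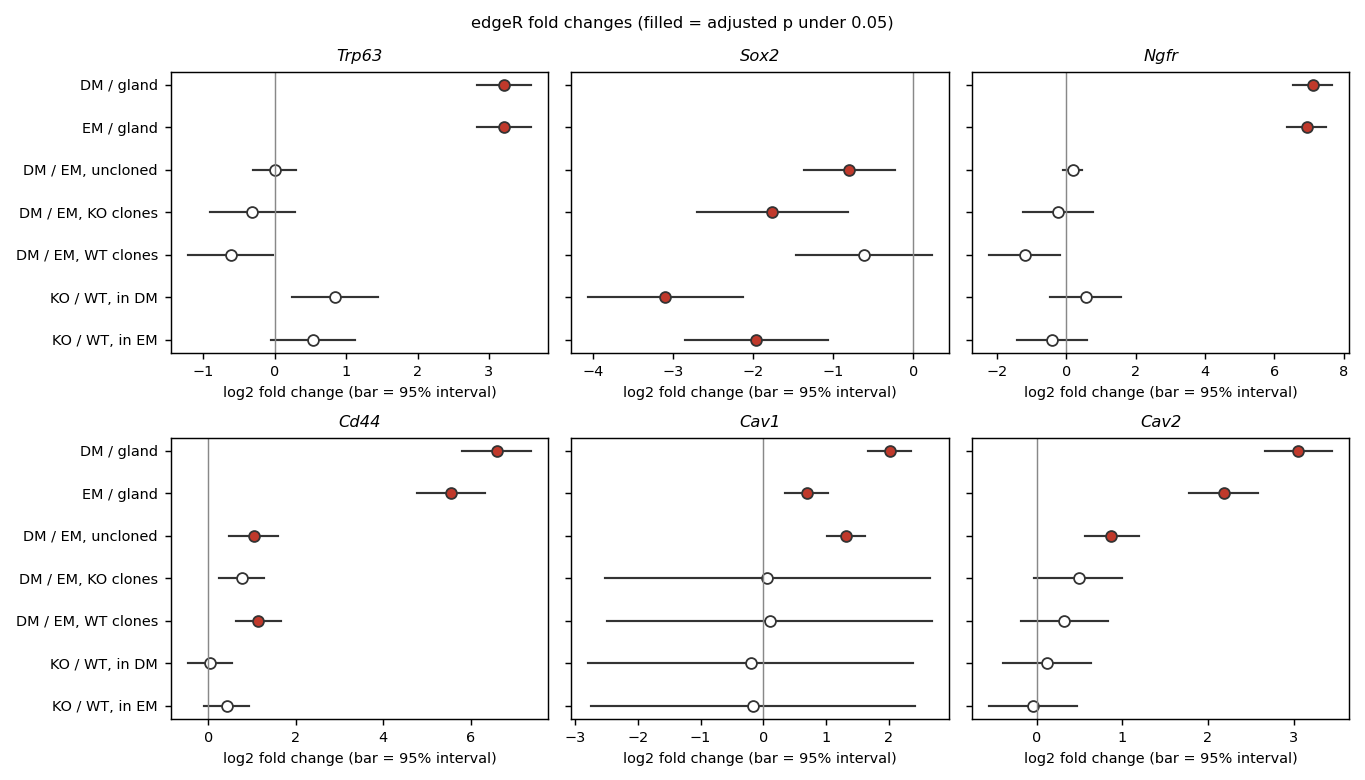
Log2 fold change of each gene in 7 comparisons, with 95% intervals from edgeR, filled where the adjusted p is under 0.05. All gland comparisons shown are filled, Cd44, Cav1 and Cav2 are filled to the right of 0 for DM over EM in uncloned organoids, and Sox2 alone is filled for labelled KO over WT, left of 0. Sox2 against the gland is left out because the gland holds 1 count.

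Cav1, Cav2 and Cd44 are also made by endothelial, fibroblast, immune and myoepithelial cells, so markers of these were read in the same libraries. Among 12 endothelial markers, 6 to 8 had counts in uncloned DM, 5 to 7 in EM and 11 to 12 in the gland. Their summed level was 254 to 353 CPM in DM, 231 to 300.3 CPM in EM and 96.6 to 111 CPM in the gland, but Flt1, a VEGF receptor, made 293 CPM of this in DM, 255 CPM in EM and 11.3 CPM in the gland on average. Pecam1, a defining endothelial protein, averaged 0.186 CPM in DM, 0.0260 CPM in EM and 11.3 CPM in the gland. Fibroblast markers summed to 81.7 to 175 CPM in DM, 133 to 145 CPM in EM and 756 to 917 CPM in the gland, with 5 to 6, 3 to 6 and all 12 of 12 detected. Immune markers summed to 20.4 to 28.3 CPM in DM, 15.4 to 25.1 CPM in EM and 341 to 458 CPM in the gland, with 5 to 6, 5 to 6 and 8 of 10 detected. Ptprc, or CD45, had no counts in organoids. Against the gland, 1 of 12 fibroblast markers was higher and 11 lower in EM, and 1 of 7 immune markers tested was higher and 6 lower. Markers such as Col1a2 (0 CPM in EM and 118 CPM in the gland) and Ptprc (0 and 10.6 CPM) passed the filter through the gland alone. Their lower calls were fixed by that filter and add nothing to the levels. The higher fibroblast marker was Fbln1, an extracellular matrix protein, which averaged 75.6 CPM in DM, 137 CPM in EM and 4.02 CPM in the gland (5.10 ± 0.31 for EM, edgeR adjusted p = 5.44e-08), while Dcn averaged 0.0959 CPM in DM, 0.1105 CPM in EM and 245 CPM in the gland. The higher immune marker was Cd68, a lysosomal protein, at 17.3 CPM in DM, 17.6 CPM in EM and 10.4 CPM in the gland (0.77 ± 0.33 for EM, edgeR adjusted p = 0.0499), a call lost without line 6 or 7 in EM or number 6 or 8 of the gland, and with the line as a block. These cells' part in the levels of the 6 genes was not tested.

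Myoepithelial markers moved with the medium alongside Cav1, Cav2 and Cd44. The 9 markers summed to 143, 161 and 248 CPM in DM of lines 6, 7 and 8, 6.75 to 8.55 CPM in EM and 345 to 369 CPM in the gland, with 7 to 9, 6 to 8 and 8 to 9 detected. With DM 6 of 8 tested were higher, among them Mylk, myosin light chain kinase (6.41 ± 0.28), and Acta2, smooth muscle actin (4.36 ± 0.30). Myh11, a defining smooth muscle myosin, averaged 0.144 CPM in DM, 0.141 CPM in EM and 77.5 CPM in the gland. Line 8 in DM had the highest sum and the lowest Cd44, Cav1 and Cav2 of the DM libraries. In clones the sums were 34.1 and 41.8 CPM in DM and 1.41 and 2.19 CPM in EM for labelled KO, and 12.2 and 33.5 CPM in DM and 1.87 and 3.89 CPM in EM for WT. Other marker sets moved with the medium as well. In uncloned DM against EM, 4 of 7 immune markers were higher and 0 lower (2 to 4 higher with a library left out). All 4 were low: Cd74 averaged 5.03 CPM in DM and 0.860 CPM in EM, and Lyz2 2.13 and 0.803 CPM. Cd52 averaged 0.452 and 0.159 CPM, and Csf1r 0.396 and 0.0935 CPM. Cd68 stood at 17.3 CPM in DM and 17.6 CPM in EM and was not called. Of 12 fibroblast markers 2 were higher and 1 lower, beside 17.2% and 13.2% of all genes. Postn, on the fibroblast list, averaged 39.8 CPM in DM and 0.156 CPM in EM (7.92 ± 0.52, edgeR adjusted p = 4.76e-06). The part any of these markers play in the differences between media was not tested.

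Schwann cell markers, read because glia make Ngfr and Sox2, summed to 222 to 288 CPM in DM, 246 to 276 CPM in EM and 175 to 201 CPM in the gland, with 3 of 7 tested higher and 2 lower in EM than in the gland, or 6 and 1 with total-count scaling. Mbp, a myelin protein, averaged 102 CPM in DM, 121.5 CPM in EM and 27.3 CPM in the gland (2.16 ± 0.15 for EM, edgeR adjusted p = 1.44e-07). L1cam, an adhesion protein, was higher in EM by 2.12 ± 0.22, and Ncmap averaged 0.8815 CPM in EM with no count in the gland. Pmp22, also a myelin protein, had no counts in organoids. Adipocyte markers summed to at most 0.154 CPM in DM, 2.08 CPM in EM and 28.9 CPM in the gland. Cornea and conjunctiva markers, epithelia that also carry Trp63, summed to 829 to 1212 CPM in DM, 615 to 870 CPM in EM and 8.17 to 11.2 CPM in the gland, of which Krt19 averaged 930.1 CPM in DM, 653 CPM in EM and 3.97 CPM in the gland. Among clones, 2 of the 6 tested were lower in labelled KO than in WT in DM, beside 3.08% of all genes, and 1 in EM, beside 4.41%. None was called higher, beside 2.39% in DM and 5.38% in EM. Krt4, a mucosal keratin, averaged 1.00 CPM in labelled KO and 27.55 CPM in WT in DM (-4.78 ± 0.77, edgeR adjusted p = 0.0254), and 3.50 CPM in labelled KO and 79.4 CPM in WT in EM (-4.50 ± 0.70, edgeR adjusted p = 0.0131). Krt12, the corneal keratin, averaged 0.0779 CPM in labelled KO and 3.84 CPM in WT in DM (-5.51 ± 0.98, edgeR adjusted p = 0.0376). Muc5ac, on the same list, went the other way without a call, at 6.62 ± 2.59 in DM and 4.04 ± 1.31 in EM. Also not called were Krt13 (-2.76 ± 0.92 in DM and -1.15 ± 0.86 in EM), Krt19 (-0.62 ± 1.14 and 0.65 ± 1.14) and Aldh3a1 (0.11 ± 0.46 and -0.22 ± 0.45). Leaving out one library gave 0 to 2 lower in DM, with none left without labelled KO clone 1, and 0 to 1 lower in EM, with none left without either clone labelled KO.

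Genes whose levels went most like each member were ranked by the lower of the Pearson correlations over the 9 libraries with the gland and the 8 clone libraries, among 8720 named genes that reach 10 CPM in a group of each table. For Trp63 they were Icam1, Tsku and Snai2, with correlations of 0.98, 0.99 and 0.96 over 9 libraries and 0.97, 0.96 and 0.96 over 8. Icam1 encodes a leukocyte adhesion protein and Snai2 the transcription factor Slug. For Ngfr they were Slc6a8, the creatine transporter, Car12, a carbonic anhydrase, and Nudt14 (0.98, 0.95 and 0.94, then 0.97, 0.95 and 0.93). Sox2 went with Coro2a, Pfkl, a phosphofructokinase, and Unc13a (0.98, 0.98 and 0.97, then 0.97 for each). Cd44 went with Ephb4, an ephrin receptor, Rab12 and Chrnb1 (0.99, 0.98 and 0.99, then 0.97, 0.96 and 0.96), and Cav2 with Hcar2, Foxn1 and Pinx1 (0.99, 0.97 and 0.97, then 0.94, 0.93 and 0.91). The least close were those of Cav1: Elk4, Tcaf1 and Galnt6 (0.90, 0.85 and 0.88, then 0.86, 0.87 and 0.80). All 6 genes differ between gland and organoids among these 9 libraries, and the part of that difference in each correlation was not tested. Ranked by Spearman's correlation instead, only Hcar2, for Cav2, was kept, so the genes named depend on the measure. Cav1 and Cav2 correlated at 0.91 over those 9 libraries and at -0.45 over the 8 clone libraries, where clone 2 labelled KO stands apart.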

How the data were processed

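Libraries were made with a stranded kit for polyadenylated RNA, per the labels' protocols. The submitters' processing notes name STAR, featureCounts and GRCm38, each with a version not given in the sources used here. Per the file headers and values, the deposited counts per gene are whole numbers, not normalised, in one table of 9 libraries and another of 8. Gene symbols, positions and exon lengths came from GENCODE M21, which matched 36345 of 38293 and 55141 of 55487 IDs. No columns were left out.

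Each table was filtered with filterByExpr (13713 and 14282 genes kept), given TMM-scaled library sizes and fitted with a mean per group by edgeR 4.0.16's quasi-likelihood method in R 4.3.3 (6 and 4 residual degrees of freedom). P-values were Benjamini-Hochberg adjusted over all genes of a comparison and called under 0.05. The SE is the log2 fold change over the square root of F, without its sign. The steps were tested on simulated data.

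Comparisons, alternatives, the naming rule and the gene lists, written from textbook knowledge, were chosen with earlier results of these data known. The lists cover p63 targets and partners, caveola proteins, neurotrophins and receptors, hyaluronan proteins, SOX factors, progenitor surface proteins, and myoepithelial, endothelial, fibroblast, adipocyte, Schwann, immune and corneal or conjunctival markers. Named were the 6 genes, Pax6, Krt5, Krt14, up to 4 genes with the smallest p per list and comparison, and the 3 genes most like each member, except some that are not reported here. Further markers (Epcam, Dcn, Fbln1, Cd68, Cdkn1a, Pecam1, Ptprc, Myh11, Pmp22, Krt19, Ntrk3, Flt1, Cavin2, Esrp2) were named for the check they give, some after their values were seen.

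Alternatives were other scalings, no filter, DESeq2 1.42.0, only the libraries compared, each library left out and a block on line or clone. Leaving out a whole clone was added after seeing the data. The labels give EM and DM libraries the same line or clone, so these are paired. Deviations from group means correlated at 0.18, 0.12 and 0.09 for lines 6, 7 and 8, and at 0.51 (labelled KO) and 0.60 (WT) for clones. Promoter sequences are RefSeq's.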

Additional observations from a re-analysis of the deposited data

Results flagged for a closer look

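The change of Ngfr with DM went opposite ways in uncloned lines and in clones. Within the 3 uncloned lines it was positive each time, from 0.13 to 0.22 on the log2 scale, and within all 4 clones it was negative. The mean change in clones labelled KO (-0.35 and -0.13) minus that in uncloned lines was -0.42. The mean change in WT clones (-2.28 and -0.55) minus that in uncloned lines was -1.60. These groups sit in separately scaled tables, and the difference was not tested. The main edgeR fit called no change of Ngfr with DM. It gave 0.18 in uncloned organoids (95% interval -0.10 to 0.46), -0.24 in labelled KO and -1.20 in WT clones. WT clone 1 in DM, at 33.2 CPM, was the lowest of the clone libraries.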

How the results depend on the processing

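No called difference among the 6 genes changed sign under any alternative, while some uncalled ones in clones did, none of them called where the sign changed. Over all genes the balance with DM in uncloned organoids turned, with 2352 higher and 1806 lower by TMM but 1952 higher and 2597 lower by total-count scaling. All 6 genes remained called higher than the gland in EM and in DM under every scaling, filter, tool, block and left-out library. In uncloned organoids the 3 higher calls with DM remained throughout, and the lower calls ran from 0 to 1 with a library left out.

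In clones, calls among the 6 genes were less stable, and the cause was not tested except where libraries were removed. With the replicate block on clone, labelled KO had 2 higher with DM in place of 0, WT had 2 lower in place of 0, and the line block changed no member's call in uncloned organoids. Over all genes the clone block gave 1321 higher in labelled KO in place of 706, and 1528 lower in WT in place of 875. Same-numbered KO and WT clones share only a number (correlations of 0.00 to 0.02), and a replicate block on that number left 1 lower in each medium. With no filter on low counts, 2 were higher with DM in labelled KO, 3 lower in WT, 1 higher in labelled KO against WT in EM, 2 higher in DM, and 1 higher and 1 lower in the interaction. Calls rose over all genes too: 1451 higher with DM in labelled KO in place of 706, and 1387 lower in WT in place of 875. Labelled KO against WT had 1491 higher in EM in place of 769, and 1074 in DM in place of 341. The interaction had 154 higher and 503 lower in place of 0 and 0. DESeq2 called 1 higher with DM in labelled KO, 1 lower in WT and 1 higher in labelled KO against WT in DM. Over all genes it called 1082, 1082 and 683 in these directions, in place of 706, 875 and 341. Fitting only the libraries compared gave 0 lower with DM in labelled KO, 1 higher in labelled KO against WT in EM and 0 lower in DM. Over all genes it gave 702, 755 and 64 in these directions, in place of 487, 769 and 440.

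Leaving out one library or clone gave 0 to 1 higher and 0 to 1 lower with DM in labelled KO, 0 to 1 higher and 0 to 2 lower in WT, 0 higher and 0 to 1 lower for labelled KO against WT in EM, 0 to 2 higher and 0 to 1 lower in DM, and 0 to 1 higher in the interaction. A lone clone is assumed to vary like the others. Leaving out a single clone library also cut the calls over all genes in each medium and genotype comparison. Member calls lost in this way are therefore not particular to the members. With Krt14 in place of Krt5 as denominator, 3 genes in place of 0 were higher in EM. Ranked by Spearman's correlation, 1 of the 3 genes most like Cav2 was shared and 0 for the other 5. Over all genes, the filter, tool, block and fitting alone moved the counts in clones by over 1.5 times: labelled KO against WT in DM gave 46 higher and 64 lower when fitted alone, against 341 and 440. Sox2 at 1.54 CPM in labelled KO and 9 Ngfr counts in the gland limit precision.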
